A study of Mus musculus with 2 samples.

Results

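The proteasome genes of the whole mouse embryo are described here across 2 arrays. They were taken as every probe set whose only gene symbol in the array's annotation is that of a proteasome subunit, activator, inhibitor or assembly chaperone (Psma, Psmb, Psmc, Psmd, Psme, Psmf or Psmg followed by a number), a choice that used no measured value. This gave 100 probe sets of 47 genes, out of 34958 probe sets with 1 symbol that name 18194 genes. RefSeq lists 49 genes with such symbols, and the remaining pair, Psme2 and Psme2b, share a probe set with several symbols that is not counted among the members. Total RNA of E14.5 wild type mouse embryos, taken whole and given no treatment, was isolated with RNAzol, labelled with biotin and hybridised in duplicate to Affymetrix arrays. The labels name no strain or number of embryos, and whether separate embryos or a single RNA lay behind the duplicates is stated neither there nor in the methods, so the spread between array 1 and array 2 may be technical. As there is 1 condition, no group was tested against another, and no p-value was computed.

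The proteasome degrades proteins that carry ubiquitin chains. Its core particle is a barrel of outer alpha rings, which gate the entry, and inner beta rings, which hold the proteolytic sites, and a regulatory particle on either end binds the ubiquitin chain, removes it and unfolds the substrate. In most cells the proteolytic sites belong to Psmb5, Psmb6 and Psmb7. In immune cells and under interferon-gamma they are replaced by Psmb8, Psmb9 and Psmb10 to form the immunoproteasome, which cuts peptides suited to MHC class I presentation, and cortical epithelial cells of the thymus use Psmb11 in place of Psmb5.

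Background was read from 81 probe sets for receptors of smell, pheromones and bitter taste, genes presumed to be silent in nearly all cells of an embryo. Their 95th percentile served as the bound for each array, at 27.9 for array 1 and 33.8 for array 2, and the median signals of all probe sets were 32.0 and 35.3. A gene passed if on array 1 and on array 2 any probe set of it exceeded the bound. The oligonucleotides of different probe sets respond differently, so a signal was compared with the bound and with the same probe set on the other array, and no ratio was formed between genes. All of the measured hepatocyte (4 of 4), erythroid (3 of 3), neuron (4 of 4) and skeletal muscle (4 of 4) markers lay above background, beside 65.5% of all genes.

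Almost the whole constitutive proteasome was far above background, whereas of the alternative catalytic subunit genes Psmb8, Psmb9 and Psmb11 lay near or below it and Psmb10 lay above it. Of the 47 genes, 44 (93.6%) were above background on both arrays, beside 65.5% of all genes. The exceptions were the immunoproteasome subunit gene Psmb9, the thymus subunit gene Psmb11 and the testis subunit gene Psma8. Signals over 10 times the bound on both arrays were found for 31 of the 47 genes (66.0%), beside 14.3% of all genes, and signals over 20 times the bound for 24 (51.1%), beside 5.94%. With the probe set of the highest mean signal standing for each gene, the median signal was 704 on array 1 and 718 on array 2 for proteasome genes, and 73.4 and 74.5 for all genes. Genes with several probe sets have more chances to pass. Among the 21 proteasome genes with a single probe set 18 passed, beside 48.6% of all genes with a single probe set, and all 26 with several passed, beside 82.8% of all genes with several.

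**Figure D1:**
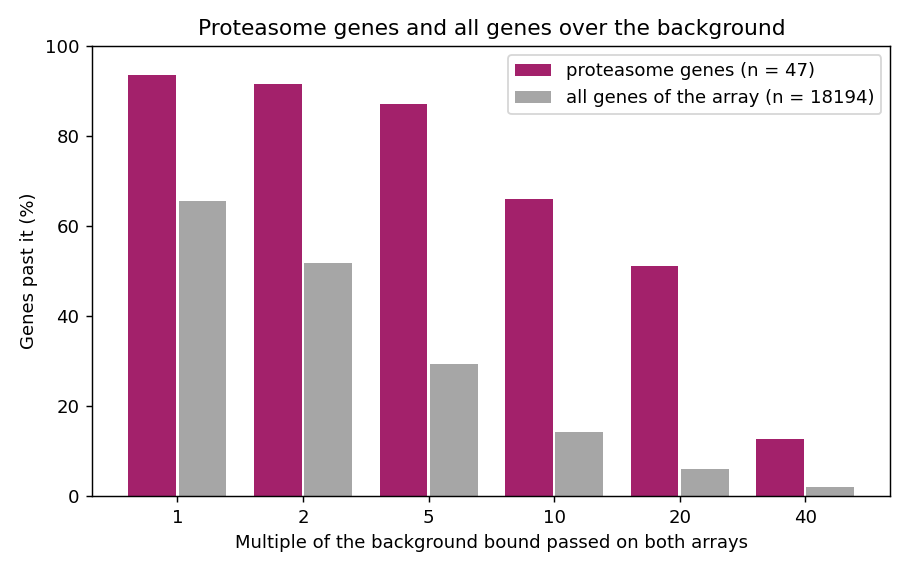
Percentage of genes (vertical axis) whose signal passed the background bound, or the given multiple of it (horizontal axis), on both arrays, for the 47 proteasome genes (purple) and all 18194 genes of the array (grey). The share of proteasome genes is 93.6% at the bound and 66.0% at 10 times the bound, beside 65.5% and 14.3% of all genes.

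The question set for the catalytic subunits was whether the immunoproteasome genes were measured above background as their constitutive counterparts were. Of the 3 immunoproteasome genes 2 were above background on both arrays and none reached 10 times the bound, beside 65.5% and 14.3% of all genes, so these counts alone do not set the 3 apart from genes at large. All 3 constitutive genes passed, with at least 33.0 times the bound on either array. To show the genes of this contrast, the stretch around the annotated start of each is printed from RefSeq (GRCm38.p6), 250 bases before to 50 after the start, 5′ to 3′ along the strand of the gene. Capitals mark matches, on either strand, to 4 short motifs: CCAAT (the box bound by the factor NF-Y), TGACNNNGC (the antioxidant response element, through which Nfe2l1 acts on proteasome genes), the interferon-stimulated response element (GAAA, any 2 bases, GAAA) and TTCNNNGAA (the gamma-activated site bound by Stat factors).
Psmb8 (chr17:34197945-34198244, plus strand): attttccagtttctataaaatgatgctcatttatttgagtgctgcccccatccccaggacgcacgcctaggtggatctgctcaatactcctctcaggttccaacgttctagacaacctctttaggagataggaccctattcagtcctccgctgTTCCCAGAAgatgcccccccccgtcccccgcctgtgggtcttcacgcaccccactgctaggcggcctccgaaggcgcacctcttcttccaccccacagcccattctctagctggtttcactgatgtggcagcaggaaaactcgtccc
Psmb9 (chr17:34187281-34187580, minus strand): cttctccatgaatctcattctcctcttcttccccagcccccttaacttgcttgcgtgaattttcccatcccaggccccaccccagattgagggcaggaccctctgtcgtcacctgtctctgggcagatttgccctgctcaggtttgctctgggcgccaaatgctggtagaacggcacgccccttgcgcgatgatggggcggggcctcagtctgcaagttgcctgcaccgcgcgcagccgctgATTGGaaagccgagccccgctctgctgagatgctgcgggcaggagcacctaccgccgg
Psmb10 (chr8:105938343-105938642, minus strand): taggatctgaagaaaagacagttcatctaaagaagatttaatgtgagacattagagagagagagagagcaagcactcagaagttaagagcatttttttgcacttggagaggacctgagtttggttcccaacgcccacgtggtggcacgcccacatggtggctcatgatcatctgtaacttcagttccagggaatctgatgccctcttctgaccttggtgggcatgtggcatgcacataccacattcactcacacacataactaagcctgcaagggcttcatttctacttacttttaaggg
Psmb5 (chr14:54617946-54618245, minus strand): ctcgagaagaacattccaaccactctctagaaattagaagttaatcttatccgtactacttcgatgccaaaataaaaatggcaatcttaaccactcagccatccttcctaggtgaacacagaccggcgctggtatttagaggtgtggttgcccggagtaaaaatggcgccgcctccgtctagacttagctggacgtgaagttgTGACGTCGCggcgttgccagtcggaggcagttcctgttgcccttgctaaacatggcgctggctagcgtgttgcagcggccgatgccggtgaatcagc
Psmb6 (chr11:70525107-70525406, plus strand): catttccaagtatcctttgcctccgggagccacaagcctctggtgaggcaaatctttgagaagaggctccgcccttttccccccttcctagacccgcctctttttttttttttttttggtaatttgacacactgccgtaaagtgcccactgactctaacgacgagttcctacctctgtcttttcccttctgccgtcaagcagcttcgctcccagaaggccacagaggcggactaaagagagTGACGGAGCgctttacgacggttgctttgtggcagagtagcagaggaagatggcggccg

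Among these 5 stretches, Psmb5 and Psmb6 each held 1 TGACNNNGC match, starting 47 and 9 bases before the start. Psmb8 held 1 TTCNNNGAA match, starting 97 bases before it, and Psmb9 held 1 CCAAT match on the opposite strand, starting 8 bases before it. Psmb10 held none of the 4 motifs. The stretches of 39 member genes could be read. TGACNNNGC was in 6 of them (15.4%) and in 12.4% of all 32851 stretches of the table, CCAAT in 14 (35.9%) and in 37.4%, the interferon-stimulated response element in 5 (12.8%) and in 3.44%, and TTCNNNGAA in 3 (7.69%) and in 8.3%. The 5 genes with the interferon-stimulated response element were Psmb3, Psmd4, Psmd9, Psme1 and Psmg4, so none of the 3 immunoproteasome genes was among them. A match describes the letters of the stretch and says nothing of binding. RefSeq's table held no stretch for Psmb7.

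Psmb8, which takes the place of the chymotrypsin-like subunit Psmb5, was barely above background. One of its probe sets gave signals of 33.5 on array 1 and 35.7 on array 2, against bounds of 27.9 and 33.8, and the other gave 5.6 and 4.5. Psmb5 itself had signals of 1181 and 1221 in its single probe set, which were 42.3 and 36.1 times the bound. With the bound moved up to the 99th percentile, at 33.9 and 41.4, Psmb8 no longer passed.

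Psmb9, which replaces the caspase-like subunit Psmb6, was above the bound on array 1 only, where it gave 35.4, while array 2 gave 24.2 (1.27 and 0.716 times the bound). Psmb6 had 1070 and 1116, at 38.4 and 33.0 times the bound. Psmb10, which replaces the trypsin-like subunit Psmb7, was the immunoproteasome gene with a clear signal. It gave 138.5 on array 1 and 135.2 on array 2, which were 4.96 and 4.0 times the bound, and Psmb7 gave 1813 and 1627. The duplicates were thus close for Psmb10 and for the constitutive genes, and lay on different sides of the bound for Psmb9.

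**Figure D2:**
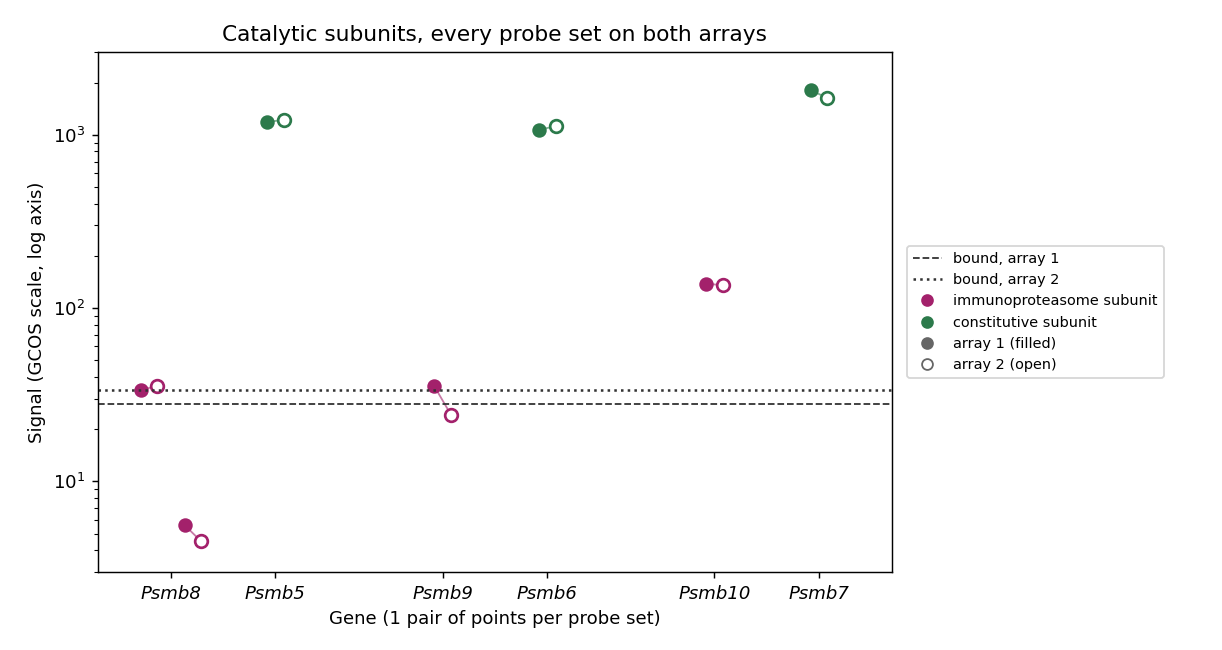
Signal on a log axis (vertical) of every probe set of the catalytic subunit genes (horizontal), with each immunoproteasome gene (purple) left of its constitutive counterpart (green), array 1 filled and array 2 open; the lines are the background bounds of 27.9 (array 1) and 33.8 (array 2). The stronger probe set of Psmb8 and that of Psmb9 lie near the bounds, the weaker one of Psmb8 at 5.6 and 4.5, Psmb10 at 138.5 and 135.2, and the constitutive genes between 1070 and 1813.

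The subunit genes of single tissues were below background. Psmb11, the subunit of thymic cortical epithelium, had signals of 11.1 on array 1 and 16.6 on array 2 in its single probe set. It lies next to Psmb5 in the order of protein-coding genes in RefSeq, whose signals are given above. Psma8, an alpha subunit of the testis, had 13.9 and 8.4. All 5 markers of spermatogenic cells (Prm1, Prm2, Tnp1, Acrv1 and Sycp3) were below background, with signals from 0.8 to 32.8 and sums of 71.9 on array 1 and 93.0 on array 2. Of all genes 65.5% were above background. Of 4 markers of thymic epithelium, Prss16 (42.6 and 34.4) and Ccl25 (41.3 and 38.4) passed near the bound and the transcription factor gene Foxn1 (23.3 and 27.5) and Ly75 (20.1 and 17.7) did not, and the sums over the 4 were 127.3 and 118. The part of these cells in the signals was not tested.

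Markers of blood cells, many of which carry immunoproteasomes, were unevenly measured. All 6 macrophage markers were above background, beside 65.5% of all genes (Csf1r at 1048 and 1044, Cd68, Adgre1, C1qa, C1qb and Mrc1). So were all 4 pan-leukocyte markers (Ptprc at 53.7 and 60.7, Cd53, Laptm5 and Coro1a). The summed signals were 2195 on array 1 and 2250 on array 2 for macrophages and 773 and 907 for the pan-leukocyte list. The 3 measured B cell markers Cd79a, Cd79b and Ms4a1 were not, nor were the T cell receptor complex genes Cd3e, Cd3g and Cd3d, with signals from 3.8 to 16.6 for the Cd3 genes, while the T cell list had Cd8a above background at 61.4 and 109.4. Of the dendritic cell markers Zbtb46 passed, Flt3 passed on array 1 only (32.6 and 14.9), and Xcr1 and Itgax did not. The sums were 98.8 and 134 for 4 T cell markers, 49.6 and 47.9 for the B cell markers and 114.7 and 94.3 for the dendritic cell markers. Each pan-leukocyte gene has several probe sets, and of all genes with several 82.8% passed. With so few genes per list, the counts of markers alone do not set the lists apart from genes at large. Sums of marker lists cover different numbers of genes and probe sets that respond differently, so they do not rank the cell types. The part of these cells in the signals of Psmb8, Psmb9 and Psmb10 was not tested, and in whole-embryo RNA few cells with much of a transcript and many with little cannot be told apart.

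Genes of MHC class I antigen processing, the pathway that the immunoproteasome serves, were mostly above background, as were most genes with several probe sets. Of 11 genes of MHC class I antigen processing 9 passed, beside 65.5% of all genes, including the peptide transporter subunit Tap1 (50.3 and 46.2), its adaptor Tapbp (302.5 and 327), the light chain B2m (944 and 1253) and the heavy chain H2-K1 (306 and 291). Tap2, the second transporter subunit, was below the bound at 23.6 and 31.4, as was Nlrc5, an activator of class I genes, at 12.1 and 17.5. Tap2 and Nlrc5 have 1 probe set each. The 9 that passed have several, and of all genes with several 82.8% passed. The count thus does not set the list apart from such genes. Over 10 times the bound were 4 genes, B2m, Calr, Canx and Pdia3. In the RefSeq gene order Tap1 stands between Psmb9 and Psmb8, and Tap2 follows Psmb8. H2-D1, H2-K1 and their relatives are near-identical in places, so their probe sets may share signal. Without probe sets ending in _s_at or _x_at, which may cross-hybridise, 7 of the MHC class I genes passed. H2-D1 was among those lost. Of 8 measured genes of the interferon response 3 passed, Irf1 (105.6 and 97.4), Irf9 (111 and 106) and Irf7 (43.6 and 50.6). All but Gbp2 have a single probe set, and 48.6% of all genes with a single probe set passed. With so few genes, the count alone does not set the list apart. Ifng, which encodes interferon-gamma, had signals of 0.6 and 1.4, and Ifnb1, Gbp2, Ifit1 and Cxcl10 were below the bound as well.

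**Figure D3:**
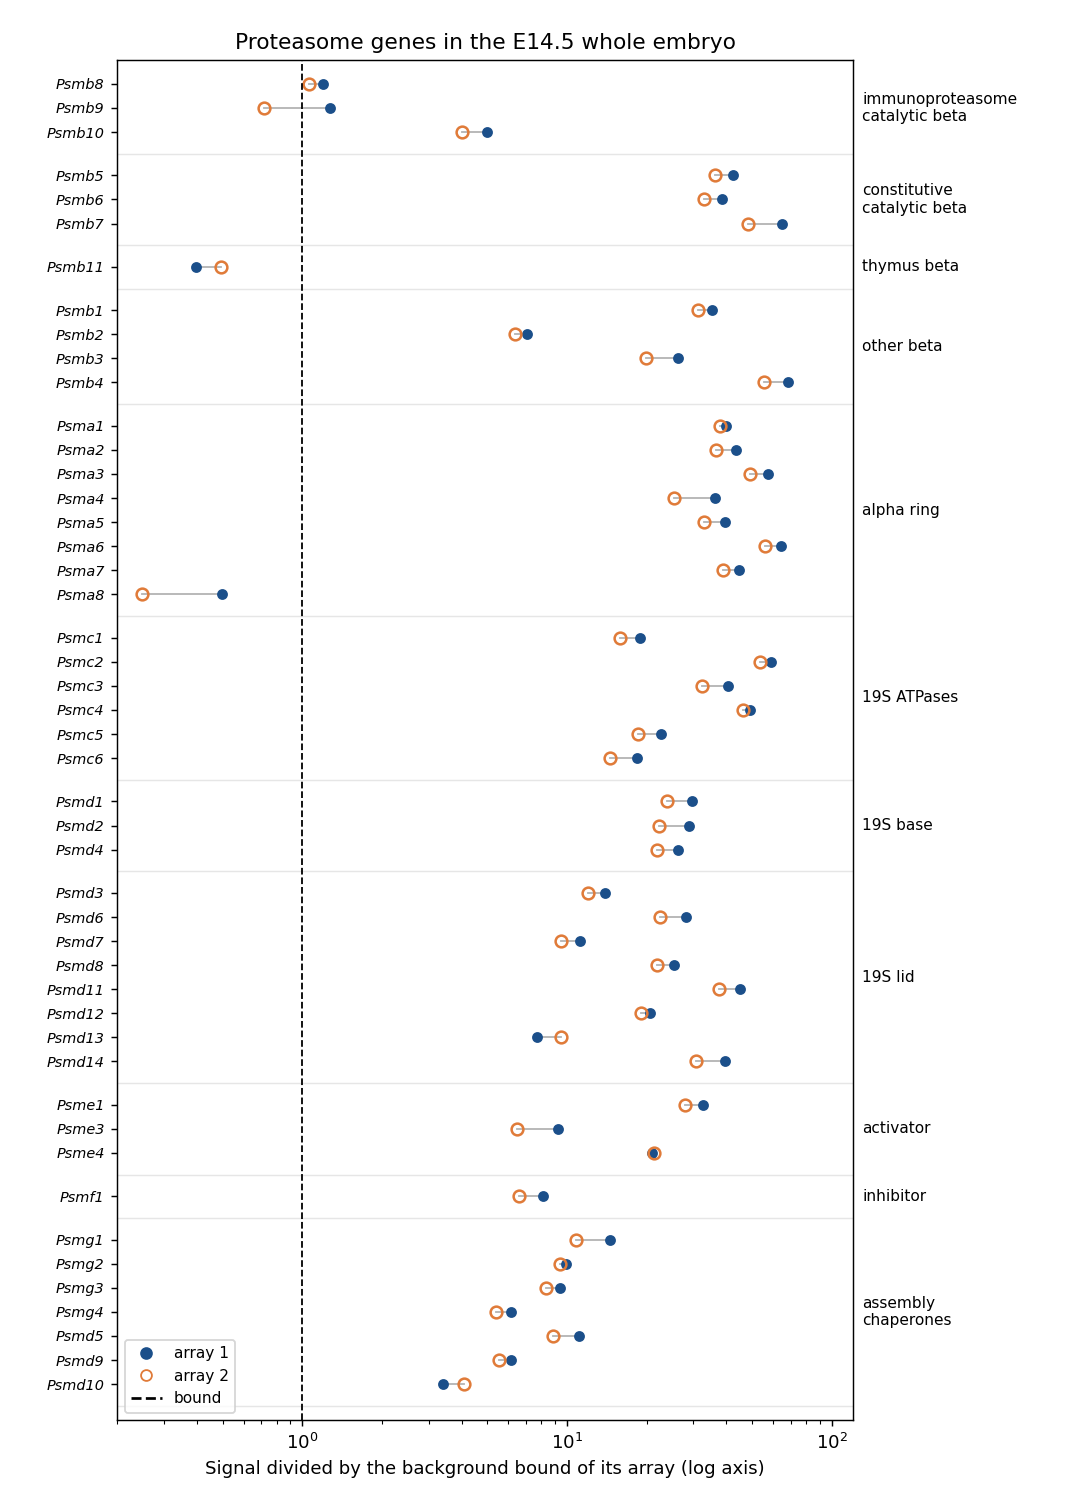
Signal of each proteasome gene divided by the background bound of its array (horizontal, log axis), from the probe set with the highest mean signal, on array 1 (filled) and array 2 (open), grouped by place in the complex; the dashed line is the bound. Array 2 often lies to the left because its bound is higher (33.8 on array 2, 27.9 on array 1). Of the 47 genes, 44 lie to the right of the line on both arrays and Psmb9, Psmb11 and Psma8 do not.

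The constitutive core particle was measured in full. All 14 of its genes were above background and 13 of them over 10 times the bound, beside 65.5% and 14.3% of all genes. In the alpha ring, Psma1 had signals of 1115 on array 1 and 1282 on array 2, Psma2 had 1216 and 1236, and Psma3 had 1603 and 1661. Psma4, the counterpart of the yeast subunit whose tail helps to close the gate, had 1010 and 854, Psma5 had 1104 and 1114, Psma6 had 1790 and 1884, and Psma7 had 1249 and 1308. Each of the 7 genes stayed at 25.3 times the bound or more on both arrays. Among the beta subunits without a proteolytic site, Psmb1 had 981 and 1052, Psmb3 had 733 and 672, and Psmb4 had 1913 and 1873. Psmb2, the remaining one, had 196.7 and 215.5 in its single probe set, at 7.05 and 6.38 times the bound.

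The regulatory particle followed the same course. Of its 17 genes 17 were above background and 15 over 10 times the bound, beside 65.5% and 14.3% of all genes. Its base holds a ring of ATPases that unfold the substrate and thread it into the core. Psmc1 had signals of 527 on array 1 and 537 on array 2, Psmc2 had 1650 and 1806, and Psmc3 had 1126 and 1093. Psmc4 had 1373 and 1559, Psmc5 had 633 and 626, and Psmc6 had 515 and 491. The duplicates of each ATPase differed by less than the SD over all genes, which was 0.24 on the log2 scale. The scaffold genes of the base gave 829.6 and 804.5 for Psmd1 and 803 and 749 for Psmd2, and Psmd4, a ubiquitin receptor, gave 730.0 and 739.6.

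In the lid, Psmd14, the enzyme that cuts the ubiquitin chain off the substrate, had signals of 1105 on array 1 and 1037 on array 2. Its partner Psmd7 had 311 and 321. The structural lid genes gave 389 and 404 for Psmd3, 784 and 757 for Psmd6, 704 and 739.7 for Psmd8, and 1254 and 1262 for Psmd11. Psmd12 gave 574.5 and 643 and Psmd13 gave 213.9 and 319. Psmd7 and Psmd13 were the 2 genes of the regulatory particle that did not reach 10 times the bound on both arrays, at 11.2 and 9.51 times the bound for Psmd7 and at 7.67 and 9.45 times for Psmd13.

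The activators open the core particle without ubiquitin. Psme1, which with its partner forms the interferon-inducible cap, had signals of 906 on array 1 and 945.5 on array 2, at 32.5 and 28.0 times the bound. Psme1 thus lay far above background on arrays where Psmb8 and Psmb9 lay near or below it. Psmb10 lay above it on both, at 4.96 and 4.0 times the bound. Psme3, a nuclear activator, had 257.5 and 218 in its strongest probe set, 224 and 249 in another and 11.7 and 14.7 in the last. Psme4, the nuclear activator known from chromatin and the testis, was above background in 5 of 6 probe sets. These gave 585 and 718, 506 and 522, 241.5 and 225, 37.8 and 45.5, and 37.3 and 40.2, and the other gave 9.9 and 7.6. Psmf1, first described as an inhibitor of the core particle, had 227 and 223.

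The assembly chaperones, which leave the particle before it works, were all above background (7 of 7), and 1 of them was over 10 times the bound, beside 65.5% and 14.3% of all genes, so at the higher level their count was near the background. That gene was Psmg1, which gave 404.5 on array 1 and 364 on array 2. Its partner Psmg2, with which it joins the alpha subunits, had 276 and 318.5. The second pair of alpha-ring chaperones gave 262.5 and 280.5 for Psmg3 and 171.5 and 182 for Psmg4. Among the chaperones of the base, Psmd5 had 309 and 299.7, Psmd9 had 170.8 and 187, and Psmd10, also known as gankyrin, had 95.2 and 138. The median of the 7 was 262.5 on array 1 and 280.5 on array 2. For the 14 constitutive core genes it was 1148 and 1229, with probe sets that may respond differently.

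Genes that feed, build or control the proteasome but are no subunit by name were above background in 17 of 18 measured cases, beside 65.5% of all genes. Most of the 18 have several probe sets, and of all genes with several 82.8% passed. The shuttle factor genes, whose products carry ubiquitylated proteins to the particle, passed in 4 of 4 cases, with Rad23b at 796 and 712, Ubqln1 at 829 and 814, Ubqln2 at 1498 and 1461 and Ubqln4 at 318 and 312. All 10 partner genes passed, among them the deubiquitinase genes Usp14 (371 and 458) and Uchl5 (295 and 369), the small lid subunit gene Sem1 (808 and 782) and the core maturation factor gene Pomp (833 and 702). Nfe2l1, the transcription factor that raises proteasome genes when proteolysis fails, had signals of 121.8 and 121.4. The stress-response factor gene Nfe2l2 (293 and 334.5) and Ngly1 (186 and 197.5), for the deglycosylase needed to activate Nfe2l1, passed too. The exception was Ddi1, a protease gene, at 1.8 and 3.3. Another 9 genes of these lists were not analysed here.

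The duplicates gave close values for the proteasome genes. Over the 44 genes above background, the log2 difference (array 2 minus array 1, centred on the median of all probe sets above both bounds) had a median of 0.05 and an SD of 0.16, and ranged from -0.24 to 0.58. Over all 11908 genes compared, the median was -0.01 and the SD was 0.24. Within 1.2-fold of each other were 41 of the 44 proteasome genes (93.2%), beside 79.0% of all genes. No proteasome gene was over 1.5-fold higher on array 2, beside 1.74% of all genes, and none was over 1.5-fold lower on it, beside 0.983%. At such shares few or none of 44 genes would be past 1.5-fold, so these counts do not set the proteasome genes apart. Their signals were also higher than those of most genes, and genes of like signal were not compared.

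The genes farthest to the positive side were Psmd13, at 0.58, Psmd10, at 0.54, and Psme4, at 0.30. For Psmd13 the difference belonged to 1 probe set (213.9 on array 1 and 319 on array 2), since the next strongest gave 190.0 and 197.4 and a further one 67.3 and 72.8. Psmd10 has a single probe set on the array. For Psme4 the strongest probe set gave the difference, and the second (506 and 522) was close on both arrays. The third was lower on array 2 (241.5 and 225). A weak probe set near the bound (37.8 and 45.5) had a similar difference, at 0.27, and the other weak one (37.3 and 40.2) had 0.11. On the negative side were Psma4 at -0.24, Psme3 at -0.24 and Psmb7 at -0.15. The leading probe set of Psme3 was lower on array 2 (257.5 on array 1 and 218 on array 2), whereas the next was higher on it (224 and 249). With 1 array on each side, none of these differences has a replicate check.

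**Figure D4:**
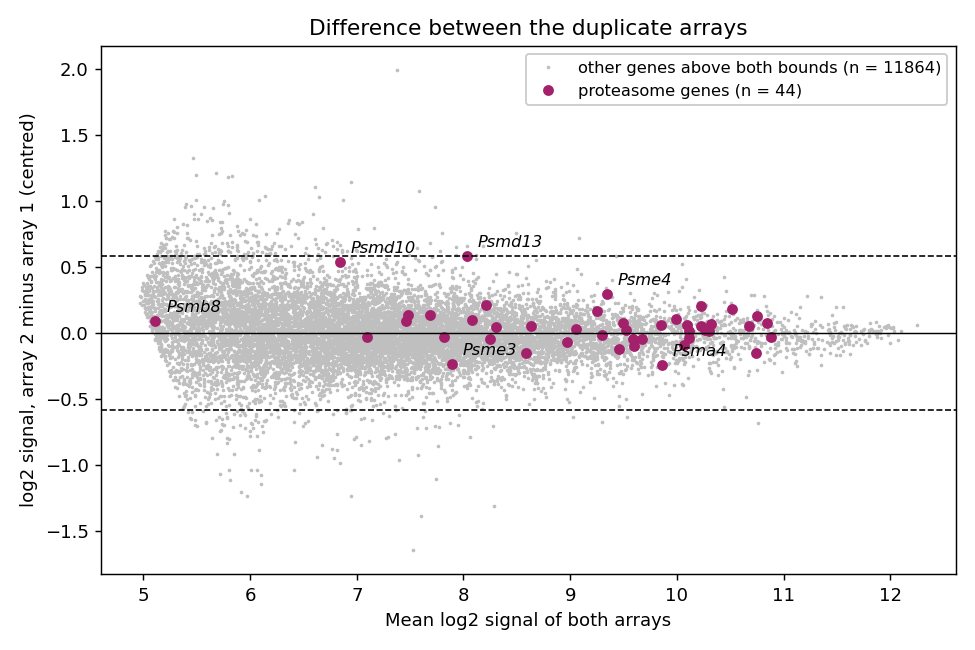
Centred log2 difference between the duplicate arrays (vertical, array 2 minus array 1) against the mean log2 signal of both (horizontal) for 44 proteasome genes (purple) and the other genes above both bounds (grey); dashed lines mark 1.5-fold. The proteasome genes lie between -0.24 and 0.58 and none is beyond the dashed lines.

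Probe sets of the same gene did not all give the same call. Of the 100 proteasome probe sets 76 were above background on both arrays, beside 55.6% of all probe sets with 1 symbol, 3 were above it on 1 array only (that of Psmb9 and 2 of Psmd9), and 21 on neither. Of the 26 genes with several probe sets, 16 had some above and some not above background on both arrays, beside 53.3% of all genes with several, so such splits were common across the array. Psmd11 is measured by 8 probe sets, of which 4 passed. The strongest gave 1254 on array 1 and 1262 on array 2, and the weakest gave 2.9 and 4.4. The 4 probe sets of Psma1 gave 1115 and 1282, 44.0 and 75.9, 8.5 and 6.9, and 3.0 and 3.8. In Psmc1 they gave 527 and 537 and then 3.2 and 3.1. Other genes showed almost the same signal throughout, as did Psmd6 with 784 and 757 in one probe set and 727 and 695 in the other, and Psmb3 with 733 and 672, and 647 and 637.

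Probe sets were also counted by the class their names give. All 20 member probe sets ending in _a_at, which match several transcripts of 1 gene, were above background, beside 70.9% of all of that class, and all 4 ending in _s_at, beside 76.2%. Of the 67 with a plain _at ending 46 passed, beside 51.1%, and of the 9 ending in _x_at 6 passed, beside 65.7%. The position of the probe sets along the transcripts was not analysed here.

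**Figure D5:**
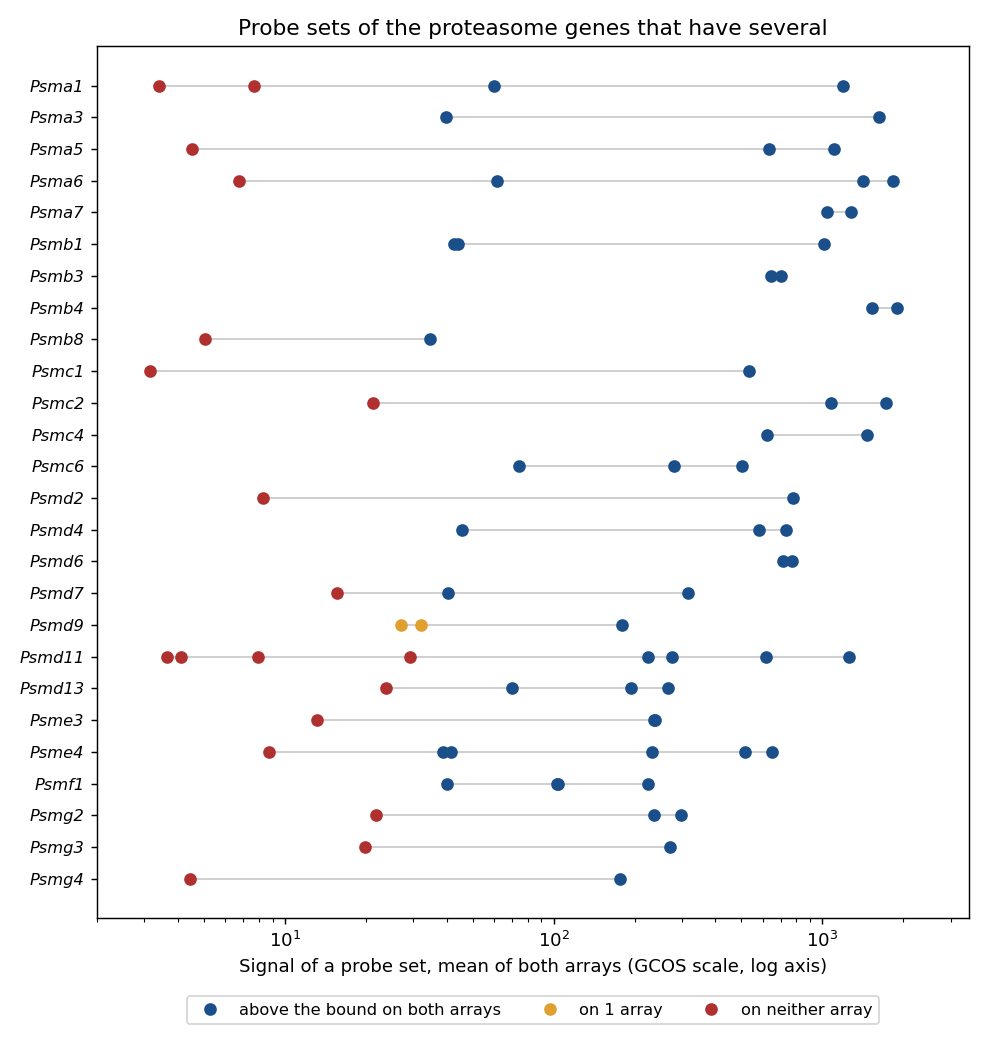
Signal of each probe set (horizontal, log axis, mean of both arrays) for the 26 proteasome genes with several probe sets (vertical), coloured by whether it passed the background bound on both arrays, 1 or neither. In 16 of the genes at least 1 probe set passed on both arrays while another did not, as in Psmd11, where 4 of 8 passed.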

How the data were processed

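RNA of E14.5 wild-type whole mouse embryos was measured on 2 arrays, taken as duplicates of 1 group. The deposited values are linear signal intensities, which the authors made with GCOS 1.3 (named in the submitters' processing notes). Each array has a mean of 100.0 after trimming 2% at each end; the values were used as deposited. Detection calls were not used here. The number of arrays limits the precision.

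The platform annotation gave the gene names; 932 probe sets with several symbols and 9211 not listed named no gene. Symbols were updated through gene identifiers in RefSeq (GRCm38.p6), listed for 34754 of 34958; no member symbol changed. A gene is shown by its probe set with the highest mean signal. Differences between arrays were taken on the log2 scale over probe sets above both bounds, centred on their median. Every member gene is named, with every probe set for the catalytic, tissue-restricted and activator genes; of other lists the first 4 measured genes and exceptions of 5 or fewer are named, and any further gene was picked with its values in view. The rule for the members reads gene symbols and no measured value, but this rule and the lists were chosen with earlier results of these data known. Motifs were searched on both strands of 300-base RefSeq stretches. Alternatives were other bounds, call rules, probe set filters, scalings and each array alone. The steps were tested on simulated arrays whose expressed genes mostly lay far above the bound, so calls near it were not tested. All probe sets of an expressed gene carried signal there, so splits within a gene were not tested either. Python 3.11.15, pandas 2.3.3, numpy 2.4.6 and matplotlib 3.10.9 were used.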

Additional observations from a re-analysis of the deposited data

Results flagged for a closer look

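A probe set outside the members gave a signal above background. The annotation pairs it with both Psme2b and Psme2, so it names neither gene and was not counted. Its signals were 427.4 on array 1 and 501.0 on array 2, against bounds of 27.9 and 33.8. Psme2 encodes the partner of Psme1 in the interferon-inducible cap. No group held enough arrays for a search for outlying samples.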

How the results depend on the processing

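Of 65 values under alternatives, 62 stayed within the limits set for them (counts within 1.5 times, the median difference within the SD of the members). These limits are wide, and a change of the immunoproteasome count from 2 to 3 lay within them. The count of immunoproteasome genes above background fell to 1 with the 99th percentile bound, where Psmb8 was lost, and lay between 2 and 3 with either array alone, Psmb9 passing on array 1. The constitutive catalytic genes gave 3 under all 7 alternatives. Proteasome genes above background numbered 43 to 45. The count of MHC class I antigen processing genes fell from 9 to 7 without probe sets ending in _s_at or _x_at. It was 10 with the 90th percentile bound. Proteasome genes differing over 1.5-fold between the arrays numbered 1 with quantile normalization, which was Psmd13, and 3 with every member probe set, where weak probe sets of Psma1, Psma3 and Psmd4 entered. No paired analysis was possible because there is 1 group. Signals near the bound, as those of Psmb8 and Psmb9, have no order.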
